A study of Mus musculus with 4 samples.

Results

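The interferon-inducible GTPases described here are 10 mouse genes: 5 guanylate-binding proteins (Gbp2, Gbp3, Gbp5, Gbp6 and Gbp7), 4 immunity-related GTPases (Irgm1, Irgm2, Igtp and Iigp1) and the very large inducible GTPase Gvin1. They were chosen by name, and both they and the gene lists below were chosen with earlier results of these data known. Their counts of calls beside the share of all genes are therefore description only. They were matched by symbol to the 54532 gene IDs of the count table, and each of the 10 matched 1 ID. RNA was sequenced from primary mouse embryonic fibroblasts (MEFs) of C57BL/6 background, made from midgestation embryos and collected while growing at passage 4. The 4 genotypes were Trp53-/-; Zfp871-/- (called the double null below), Trp53-/-, Zfp871-/- and wild type (WT), with 1 library each. Trp53 encodes the tumour suppressor p53 and Zfp871 encodes a zinc finger protein. No interferon or other agent is named in the labels. The double null and Trp53-/- cells came from an intercross of mice heterozygous for both genes, the Zfp871-/- cells came from an intercross of Zfp871 heterozygotes, and the WT cells may have come from either. Cross and Trp53 status thus cannot be told apart. Zfp871-/- and WT also differ in cross if the WT cells came from the intercross of mice heterozygous for both genes. With 1 library a genotype there is no replicate check, and it is not given whether embryos were pooled or how the alleles were made.

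Interferons bind receptors at the cell surface, and the kinases Jak1, Jak2 and Tyk2 then activate STAT factors. Type I interferon activates a complex that contains Stat2 and Irf9 and binds the interferon-stimulated response element (ISRE), and interferon gamma acts through the gamma-activated site (GAS). Fibroblasts and macrophages make both GTPase families after interferon. Guanylate-binding proteins coat the vacuoles of intracellular pathogens and promote inflammasome activation. Among the immunity-related GTPases, Iigp1 is an effector that attacks the vacuole membrane, and Irgm1, Irgm2 and Igtp (also called Irgm3) are regulators that sit on host membranes and hold the effectors inactive.

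The libraries held 19303167 to 22324599 counts each. Trp53 itself had 1382 counts in the double null and 1233 in Trp53-/-, against 2413 in Zfp871-/- and 2383 in WT. Zfp871 had 307 counts in the double null, against 784 in Trp53-/-, and 327 in Zfp871-/-, against 660 in WT. Both targeted genes were lowest in the libraries labelled as lacking them, although counts over the whole gene stayed well above 0. Of 10 fibroblast markers, all were measured in every library, and their summed level was 32690 CPM (counts scaled to library size with TMM factors) in the double null and 36080 in Trp53-/-, against 48010 in Zfp871-/- and 47230 in WT. The sum was thus lower in both libraries without Trp53, but the single markers did not share a direction. In Trp53-/- against WT 5 were higher and 5 lower (median log2 ratio -0.11). In the double null against Zfp871-/- 2 were higher and 8 lower (median -0.45).

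Promoter windows of 300 bases (250 before and 50 after the RefSeq start, GRCm38.p6) were at hand for 7 of the 10 genes, namely Gbp2, Gbp3, Gbp5, Gbp7, Irgm1, Igtp and Irgm2. They were searched on both strands for the ISRE core GAAANNGAAA and the GAS core TTCNNNGAA. The 7 genes all held at least 1 ISRE core, which was found in 3.99% of 27025 genes with a window. A GAS core was found in 4 of the 7 (57.1%), namely Gbp5, Gbp7, Igtp and Irgm2, against 9.55% of all genes with a window. The share was lower in the lists most like them, which are also small. Of 10 further GTPases of these families with a window, 6 (60%) held an ISRE core and 3 (30%) a GAS core. Of 24 antiviral interferon-stimulated genes with a window, 12 (50%) and 5 (20.8%) did. The difference between these lists was not tested. The matched stretches are shown 5′ to 3′ on the strand of the gene, from RefSeq GRCm38.p6. Capitals mark the ISRE and GAS cores, and an ISRE core of the opposite strand reads as its reverse complement.

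Gbp2, chr3:142620584-142620633, plus strand: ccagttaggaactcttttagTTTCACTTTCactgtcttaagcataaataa
Gbp3, chr3:142559979-142560034, plus strand: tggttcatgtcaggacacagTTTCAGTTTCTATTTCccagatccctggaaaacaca
Gbp7, chr3:142530210-142530312, plus strand: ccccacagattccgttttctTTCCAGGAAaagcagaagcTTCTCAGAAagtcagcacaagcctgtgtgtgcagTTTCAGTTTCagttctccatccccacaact
Gbp5, chr3:142496684-142496910, plus strand: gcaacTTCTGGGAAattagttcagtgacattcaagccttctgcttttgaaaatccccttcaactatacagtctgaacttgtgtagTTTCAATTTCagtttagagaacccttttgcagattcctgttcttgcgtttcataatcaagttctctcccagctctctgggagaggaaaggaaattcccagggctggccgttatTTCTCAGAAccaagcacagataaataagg
Irgm1, chr11:48871415-48871470, minus strand: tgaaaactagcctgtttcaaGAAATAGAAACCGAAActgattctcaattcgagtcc
Igtp, chr11:58199491-58199551, plus strand: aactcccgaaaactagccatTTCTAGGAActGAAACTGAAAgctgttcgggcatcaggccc
Irgm2, chr11:58214882-58214942, plus strand: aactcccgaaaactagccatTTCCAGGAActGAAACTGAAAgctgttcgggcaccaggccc

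In the guanylate-binding protein genes the ISRE core lay on the opposite strand, starting 59 bases before the RefSeq start in Gbp2, 53 in Gbp7 and 165 in Gbp5. Gbp3 had a pair of overlapping cores, at 45 and 39 bases before the start, and a further Gbp3 window of another start held no match. In the immunity-related GTPase genes the core lay on the strand of the gene. It stood at 34 bases before the start in Igtp and 64 in Irgm2, and in an overlapping pair at 30 and 24 bases in Irgm1. The Irgm2 window (58214727 to 58215026) lies inside the annotated gene (58199618 to 58222782). The Gbp5 window (142496684 to 142496983) also lies inside its gene (142493978 to 142522344). So does the Irgm1 window (48871371 to 48871670, gene 48861968 to 48871683). The bases after the RefSeq start were not found near the start of an annotated Irgm2 transcript. For Gbp5 and Irgm1 they were found near the start of an annotated transcript. The GAS cores of Gbp7 lay at 106 and 87 bases and those of Gbp5 at 245 and 52. In Igtp and Irgm2 a GAS core stood just before the ISRE core, at 45 and 75 bases before the start. Their 61-base stretches differed only by T24C and T54C, counted from 1 at the 5′ end with the Igtp base given before the position and the Irgm2 base after it. A match describes these letters and says nothing of binding in the cells.

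**Figure D1:**
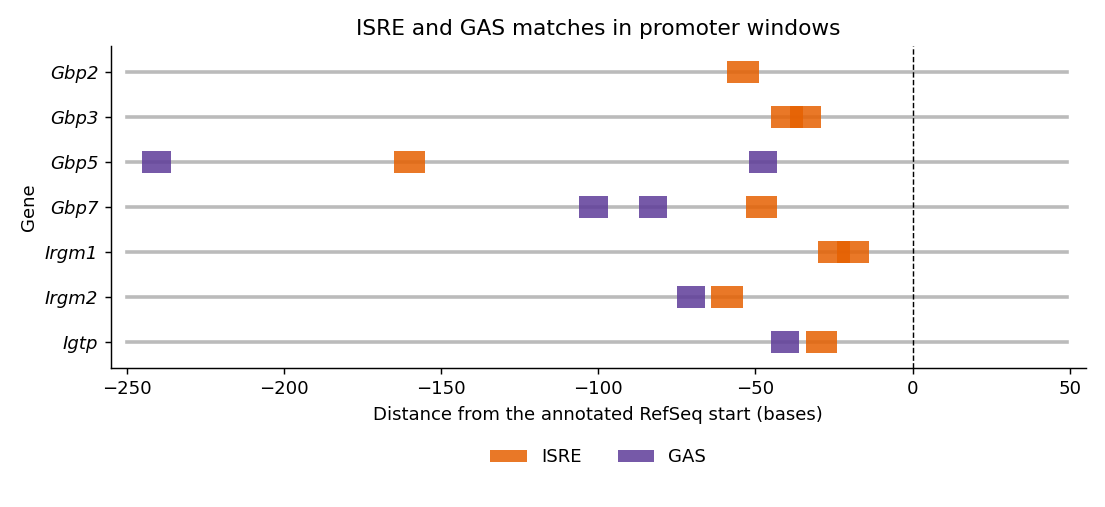
Positions of the ISRE and GAS cores in the promoter windows of 7 interferon-inducible GTPase genes, in bases from the RefSeq start (x axis), 1 gene a row. All 7 rows hold an ISRE core, and Gbp5, Gbp7, Igtp and Irgm2 also hold a GAS core.

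Transcripts of the guanylate-binding proteins were more abundant in both cultures without Trp53 than in both with it, and Trp53-/- was the highest for each of the 5. Gbp2, which gathers at vacuoles of Toxoplasma in mouse cells, had 594 counts in the double null and 1003 in Trp53-/-, against 284 in Zfp871-/- and 395 in WT. Gbp3 had 784 counts in the double null and 1318 in Trp53-/-, against 141 in Zfp871-/- and 83 in WT. Gbp2 was thus the member of this family with the highest count in WT, and Gbp3 the one with the highest count in both Trp53-null libraries. Gbp7, which acts in the oxidative defence of mouse macrophages, had 536 counts in the double null and 639 in Trp53-/-, against 192 in Zfp871-/- and 116 in WT. It has 637 exon bases (11.35%) in common with Gm43802 on the same strand, so reads there cannot be assigned to either.

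The remaining guanylate-binding proteins were sparse. Gbp5, which promotes assembly of the Nlrp3 inflammasome, had 21 counts in the double null and 42 in Trp53-/-, against 3 in Zfp871-/- and 8 in WT. Gbp6 had 67 counts in the double null and 158 in Trp53-/-, against 17 in Zfp871-/- and 8 in WT. Both were again highest in Trp53-/-. Of the 50-base windows of Gbp6 exons, 70.7% also occur in another gene (65.0% in Gm43302 and 45.9% in Gbp10), so its counts are uncertain. Gbp2, Gbp3, Gbp5 and Gbp7 lie in 1 cluster on chromosome 3 (from Gbp5 at 142493978 to Gbp2 at 142638008, GRCm38), whereas Gbp6 lies on chromosome 5 (105270702 to 105293698).

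Among the immunity-related GTPases, Irgm1 had the highest count of all 10 members in every library, with 2628 counts in the double null and 3386 in Trp53-/-, against 948 in Zfp871-/- and 915 in WT. Irgm2 had 505 counts in the double null and 642 in Trp53-/-, against 195 in Zfp871-/- and 225 in WT. Igtp had 408 counts in the double null and 512 in Trp53-/-, against 85 in Zfp871-/- and 115 in WT. These 3 regulators had the same order of Trp53-null libraries, with Trp53-/- above the double null, and both lay well above the libraries that kept Trp53. Igtp (chromosome 11, 58199556 to 58207591) and Irgm2 (58199618 to 58222782) are annotated on the same strand with 162 exon bases in common, so reads there cannot be assigned to either. Irgm1 lies apart on chromosome 11 (48861968 to 48871683).

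The effector Iigp1, on chromosome 18 (60376027 to 60392634), had 447 counts in the double null and 776 in Trp53-/-, against 93 in Zfp871-/- and 40 in WT. Gvin1, a giant GTPase of unsettled function on chromosome 7 (106156556 to 106215326), had 87 counts in the double null and 201 in Trp53-/-, against 62 in Zfp871-/- and 14 in WT. In both genes WT was lowest and Zfp871-/- lay above it. Gvin1 shares 99.2% of its 50-base windows with other genes, 98.3% with Gm4070, and its counts are uncertain. Gm4070 had 69 counts in the double null and 107 in Trp53-/-, against 32 in Zfp871-/- and 8 in WT.

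**Figure D2:**
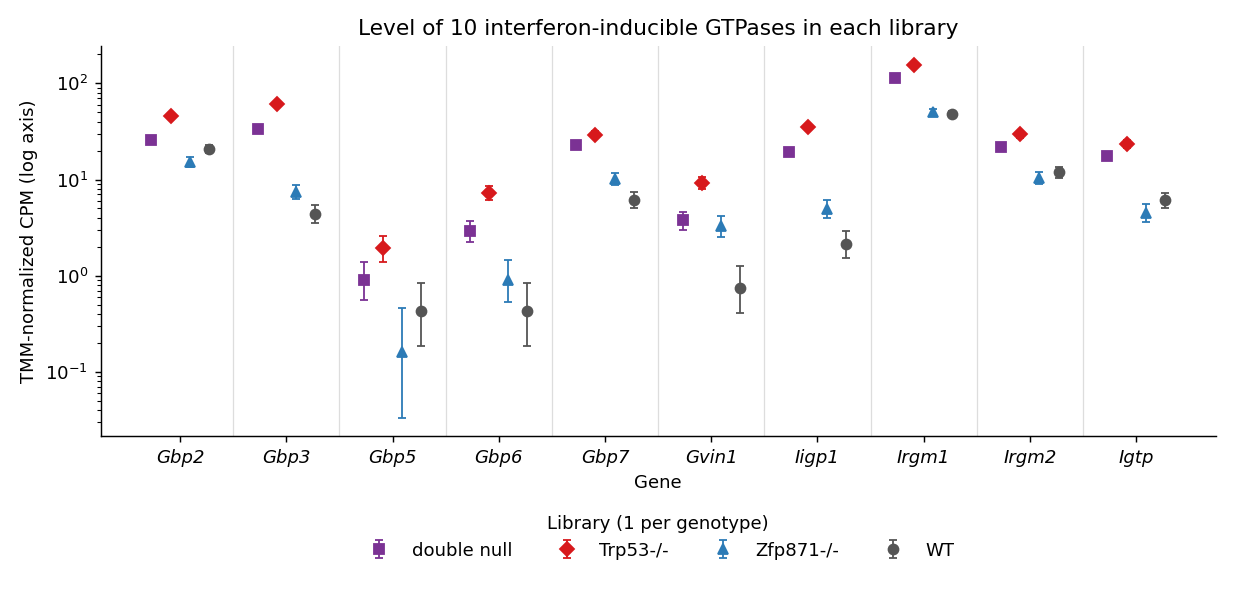
Normalized CPM (log axis) of each interferon-inducible GTPase in the 4 libraries, 1 point a library, with bars for the exact Poisson 95% interval of the count. For all 10 genes the double null and Trp53-/- points lie above the Zfp871-/- and WT points, and Trp53-/- is the highest.

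Both libraries without Trp53 stood above both with it for 10 of 10 members in normalized CPM, as did 32.7% of the 13306 genes tested. Loss of Trp53 was tested in an additive fit over all 4 libraries (edgeR's quasi-likelihood test, Benjamini-Hochberg adjusted over 13306 genes), in which each level of a factor had 2 libraries and 1 residual degree of freedom was left. Of the 10 members, 9 passed the filter on low counts and Gbp5 did not. Of these 9, 6 rose with Trp53 loss and none fell, where 5.01% of all genes rose and 4.31% fell. The p-values describe these 4 cultures. The 1 residual degree of freedom measures departure from additive effects of the 2 losses, not the spread of replicate cultures. Each SE below is the absolute log2 change divided by the square root of the quasi-likelihood F statistic, and it carries the same limit.

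All 3 regulators rose. Igtp rose by a log2 change of 1.95 ± 0.18 (SE, adjusted p = 0.0196), Irgm1 by 1.42 ± 0.16 (adjusted p = 0.0253) and Irgm2 by 1.19 ± 0.16 (adjusted p = 0.0321). Among the guanylate-binding proteins, Gbp3 rose by 2.95 ± 0.43 (adjusted p = 0.0350), Gbp7 by 1.70 ± 0.31 (adjusted p = 0.0480) and Gbp2 by 0.95 ± 0.16 (adjusted p = 0.0425). Gbp3 thus had the largest change of the 6 that passed, and Gbp2, already well expressed in WT, the smallest. The others did not pass: Iigp1 had a log2 change of 2.95 ± 0.56 (adjusted p = 0.0514), Gbp6 of 2.80 ± 0.68 (adjusted p = 0.0795) and Gvin1 of 1.75 ± 0.92 (adjusted p = 0.279). Iigp1 passed under each of 5 other settings, with adjusted p between 1.75e-08 and 0.0480. Gbp6 passed with no filter (adjusted p = 0.0155) and in the DESeq2 Wald test (adjusted p = 0.00759), and Gbp5 entered the fit only without the filter, with 2.28 and an adjusted p of 0.0415.

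The macrophage markers moved with these genes. All 17 of 17 rose with Trp53 loss in the same fit, as did 5.01% of all genes. Their median log2 change was 3.83, against 0.00 over all genes. Their summed level was 1092 CPM in the double null and 1228 in Trp53-/-, against 99.2 in Zfp871-/- and 86.4 in WT, and none of the 17 was at 0 in any library. Lyz2, the lysozyme of myeloid cells, had 9700 counts in the double null and 9136 in Trp53-/-, against 695 in Zfp871-/- and 672 in WT. Csf1r, the receptor for the macrophage growth factor, had 2437 counts in the double null and 2698 in Trp53-/-, against 230 in Zfp871-/- and 192 in WT. Macrophages also make interferon-inducible GTPases, and the part of these cells in the result was not tested. In these bulk libraries, fewer cells of a type and less RNA per cell cannot be told apart. Of 14 T and NK cell markers, 7 had no count in any library and none passed the filter on low counts. Their summed level was 2.33 CPM in the double null and 1.19 in Trp53-/-, against 0.744 in Zfp871-/- and 0.796 in WT.

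Taken as pairs of libraries, which allow no test, all 10 members were at least 2-fold higher in Trp53-/- than in WT, as were 8.9% of all genes tested. The log2 ratio of normalized CPM (prior count 2) had a median of 2.09 over the members and 0.00 over all genes. Iigp1 had the largest ratio, 4.01 (exact binomial 95% interval of the 2 counts, 3.61 to 4.56, covering counting error only). Gbp6 followed with 3.82 (3.08 to 5.33), Gbp3 with 3.75 (3.46 to 4.12) and Gvin1 with 3.47 (2.85 to 4.53). The lowest ratios were those of Gbp2, 1.13 (0.96 to 1.30), and Irgm2, 1.29 (1.08 to 1.53). The 4 members with the largest ratios (Iigp1, Gbp6, Gbp3 and Gvin1) had 8 to 83 counts in WT. Gbp5, also with 8, had a ratio of 1.96 (1.07 to 3.48).

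Where Zfp871 was also absent, 8 of 10 members were at least 2-fold higher in the double null than in Zfp871-/-, as were 5.51% of all genes. The median log2 ratio was 1.38 over the members and 0.00 over all genes. Gbp3 had 2.16 (1.91 to 2.44), and Igtp had 1.94 (1.62 to 2.32), close to its 1.93 (1.65 to 2.25) in Trp53-/- against WT. Gbp2 had 0.76 (0.56 to 0.97) and Gvin1 0.18 (-0.30 to 0.68), the single member whose counting interval held an equal level. The interval lay above it for 9 of 10 members and for 32.5% of all genes. Between the double null and WT, 7 of 10 were at least 2-fold higher, as were 8.79% of all genes, with log2 ratios from 0.29 for Gbp2 to 3.13 for Iigp1.

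**Figure D3:**
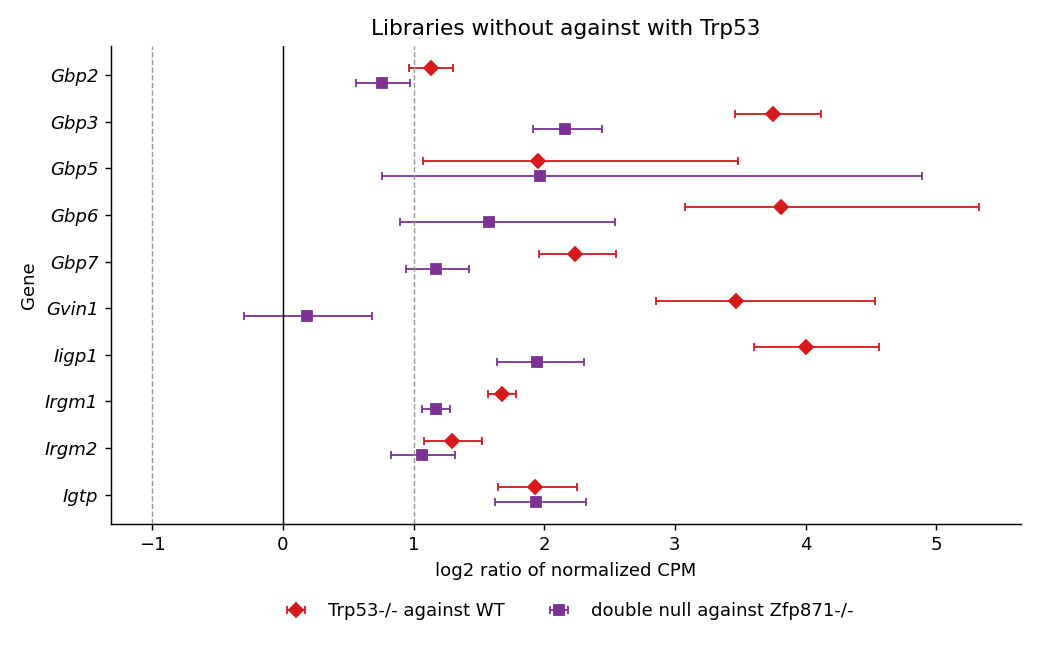
Log2 ratio of normalized CPM (x axis) for the pairs Trp53-/- against WT and double null against Zfp871-/-, 1 gene a row, with bars for the exact binomial 95% interval of the counts and dashed lines at 2-fold. All points lie right of 0, and the bar of Gvin1 in the double null against Zfp871-/- crosses it.

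Loss of Zfp871 gave no call among the members in the same edgeR fit, and no call among all 13306 genes (0%) in either direction. At an unadjusted p under 0.05 edgeR gave 510 genes (3.83%), of which 1 is a member, Gbp2, with a log2 change of -0.66 and an unadjusted p of 0.0119 (adjusted p = 0.874). The DESeq2 Wald test and limma-voom also called 0 members. Over all genes the DESeq2 Wald test called 3 higher and 5 lower, and limma-voom called 0. A p that misses the threshold does not show that the level was unchanged.

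In the pair that lacked Trp53, all 10 members had a lower level in double null cells than in Trp53-/- cells, and for all 10 the counting interval lay below an equal level, as it did for 17.5% of all genes. The median log2 ratio was -0.84 over the members and 0.00 over all genes. At least 2-fold lower were 3 members, against 1.01% of all genes: Gbp6 with -1.30 (-1.76 to -0.91), Gvin1 with -1.27 (-1.68 to -0.93) and Gbp5 with -1.01 (-1.92 to -0.30). Iigp1 had -0.88 (-1.06 to -0.71), and Gbp2 and Gbp3 each had -0.84 (-0.99 to -0.70 and -0.97 to -0.71). The smallest differences were those of Irgm1, -0.45 (-0.53 to -0.38), Irgm2, -0.43 (-0.61 to -0.26), Igtp, -0.41 (-0.61 to -0.23), and Gbp7, -0.34 (-0.51 to -0.17). Gbp7 and the 3 regulators were thus the least lowered. The macrophage markers had a median of -0.29 in this pair, with 15 of 17 lower, where 49.1% of all genes were lower. The part of these markers in the difference was not tested.

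In the pair that kept Trp53, the members did not share a direction. Zfp871-/- was higher than WT for 6 members and lower for 4, with a median log2 ratio of 0.39, where 49.5% of all genes were higher and 50.5% lower with a median of 0.00. At least 2-fold higher were Gvin1, 2.01 (1.30 to 3.10), and Iigp1, 1.18 (0.67 to 1.79), against 3.52% of all genes. Gbp3 had 0.75 (0.37 to 1.18) and Gbp7 0.72 (0.39 to 1.07), so that 4 members had intervals above an equal level, as did 27.7% of all genes. The other side held Gbp2, -0.47 (-0.70 to -0.25), and Igtp, -0.43 (-0.86 to -0.02), with intervals below an equal level, as for 27.3% of all genes. The intervals of Irgm1, 0.05 (-0.08 to 0.19), Irgm2, -0.20 (-0.49 to 0.08), and Gbp6, 0.94 (-0.20 to 2.51), held it. Gbp5, with 3 counts in Zfp871-/- and 8 in WT, had -1.02 (-3.96 to 0.65), the 1 member at least 2-fold lower, against 3.98% of all genes. For Gbp3, Gbp7, Gvin1 and Iigp1 the counting interval lay above an equal level here and below it in the double null against Trp53-/-, as it did for 5.16% of all genes, and the difference between the pairs was not tested. The macrophage markers had a median of 0.27 in this pair.

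**Figure D4:**
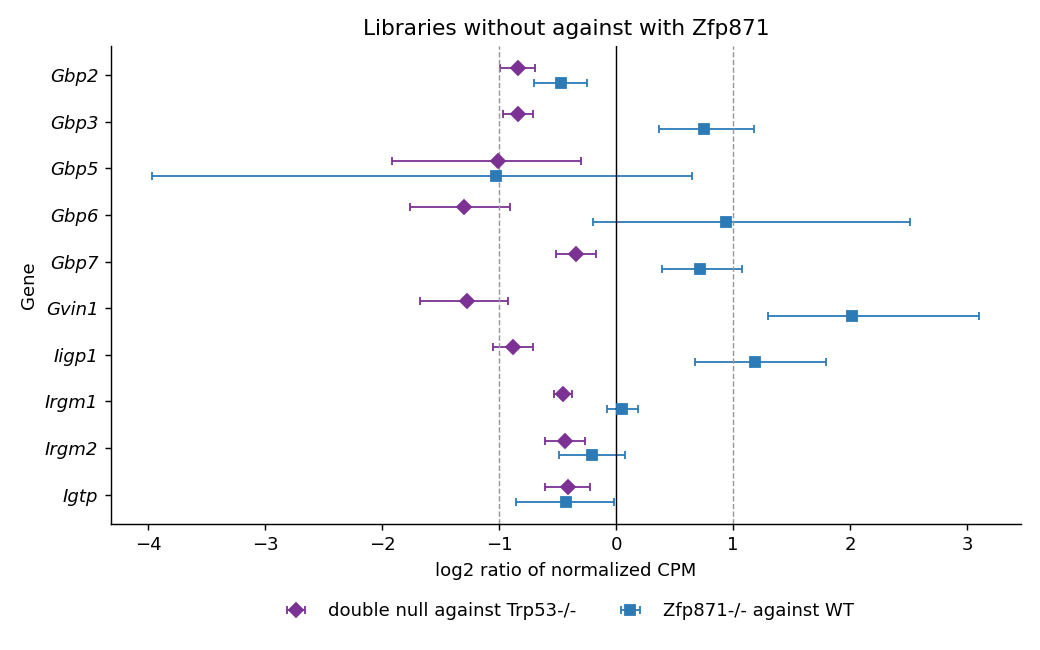
Log2 ratio of normalized CPM (x axis) for the pairs double null against Trp53-/- and Zfp871-/- against WT, 1 gene a row, with bars for the exact binomial 95% interval of the counts. All double null against Trp53-/- points lie left of 0, from -1.30 to -0.34, and the Zfp871-/- against WT points lie on both sides, from -1.02 to 2.01.

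Per length of transcript, as TPM computed from the counts and GENCODE M21 exon lengths, the members summed to 227 TPM in the double null and 365 in Trp53-/-, against 72.7 in Zfp871-/- and 83.2 in WT. Irgm1 alone made up 30.9% of this sum in the double null, 27.6% in Trp53-/-, 34.4% in Zfp871-/- and 32.2% in WT. In Trp53-/- the order of TPM was Irgm1 at 101, Gbp3 at 69.7, Gbp2 at 68.9, Igtp at 43.7, Irgm2 at 30.1, Iigp1 at 23.0, Gbp7 at 19.7, Gbp6 at 4.59, Gvin1 at 3.86 and Gbp5 at 1.09. Gbp3 and Gbp2 did not differ beyond their exact Poisson 95% intervals there, nor did Gbp6 and Gvin1. In the double null Irgm1 led with 70.1 TPM, and Gbp3 at 37.2, Gbp2 at 36.6 and Igtp at 31.3 followed, each overlapping its neighbour.

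WT had another order. Irgm1 at 26.8 TPM and Gbp2 at 26.7 led with overlapping intervals, ahead of Irgm2 at 10.4 and Igtp at 9.66, which overlapped too. Gbp3 stood at 4.32 TPM in WT and Gbp7 at 3.51, and Iigp1 at 1.17. Zfp871-/- had Irgm1 at 25 TPM and Gbp2 at 17.3, and then Irgm2 at 8.10, Gbp3 at 6.62, Igtp at 6.44 and Gbp7 at 5.24, each overlapping its neighbour. Gbp3 thus ranked above Gbp2 by value only in the libraries without Trp53. The deposited FPKM of Iigp1 implies a length of 3121 bases, 53.6% of the 5823 bases of its annotated exons. On that scale Iigp1 ranked the fifth in the double null and Trp53-/- and the seventh in Zfp871-/- and WT.

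Of 26 further GTPases of the GBP, IRG, GVIN and MX families listed, 23 were matched, 2 of these had no count in any library, and 13 were tested. With Trp53 loss 5 of the 13 rose (Gm8995, Gm4951, Gm5431, Mx1 and Mx2) and 1 fell, with a median log2 change of 2.43. Of all genes, 5.01% rose and 4.31% fell. Gm8995, on chromosome 7 as is Gvin1, had 310 counts in the double null and 343 in Trp53-/-, against 15 in Zfp871-/- and 10 in WT. Mx2, an antiviral dynamin-like GTPase, had 193 counts in the double null and 215 in Trp53-/-, against 33 in Zfp871-/- and 24 in WT. Gm8995 rose by a log2 change of 4.44 ± 0.34 (SE, adjusted p = 0.0139) and Mx2 by 2.59 ± 0.33 (adjusted p = 0.0279) in edgeR. The gene that fell was Irgq, a family member not known to respond to interferon, with 1083 counts in the double null and 1175 in Trp53-/-, against 1526 in Zfp871-/- and 1535 in WT (log2 change -0.70, adjusted p = 0.0403). Gbp9 had 298 counts in the double null and 329 in Trp53-/-, against 109 in Zfp871-/- and 29 in WT, and did not pass (adjusted p = 0.0963). Gbp4 had 15 counts in the double null and 27 in Trp53-/-, and none in Zfp871-/- or WT. In the double null against Trp53-/- all 13 tested were lower, with a median log2 ratio of -0.69, where 49.1% of all genes were lower.

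No interferon ligand passed the filter. Of 20 ligand genes, 18 had no count in any library, Ifng and Ifnb1 among them, and the others, Ifnz and Ifnab, had 10 counts in all. The receptor subunits Ifngr1, Ifngr2, Ifnar1 and Ifnar2 did not pass the test with Trp53 loss, with log2 changes from -0.21 to 0.21. Jak1 had 6919 counts in the double null and 6843 in Trp53-/-, against 7673 in Zfp871-/- and 8159 in WT (adjusted p = 0.0744). Jak2 had 2089 counts in the double null and 2413 in Trp53-/-, against 1208 in Zfp871-/- and 962 in WT (adjusted p = 0.0710). Stat2, a part of the complex that binds the ISRE, had 3205 counts in the double null and 3071 in Trp53-/-, against 1318 in Zfp871-/- and 985 in WT, and rose by a log2 change of 1.20 ± 0.15 (SE, adjusted p = 0.0276).

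Among 7 interferon regulatory factors tested, 4 rose with Trp53 loss, against 5.01% of all genes. They were Irf9, Irf7, Irf5 and Irf8, the last 2 named after their values were seen. Irf9, the DNA-binding partner of Stat2, had 1707 counts in the double null and 1724 in Trp53-/-, against 665 in Zfp871-/- and 703 in WT (log2 change 1.07, adjusted p = 0.0214). Irf7, which amplifies type I interferon, had 850 counts in the double null and 1314 in Trp53-/-, against 163 in Zfp871-/- and 142 in WT (log2 change 2.54, adjusted p = 0.0229). Irf8 is itself a factor of macrophages. Irf1, which drives many interferon gamma responses, had 743 counts in the double null and 772 in Trp53-/-, against 481 in Zfp871-/- and 483 in WT, and did not pass (log2 change 0.40, adjusted p = 0.136). Of 10 genes listed as negative regulators 3 rose, against the same 5.01% (Isg15, Usp18 and Ptpn6, the last 2 named after their values were seen). Whether each restrains interferon signalling in these cells was not tested. Isg15, a ubiquitin-like protein, had 2921 counts in the double null and 3718 in Trp53-/-, against 387 in Zfp871-/- and 352 in WT. Socs1, the feedback inhibitor of Jak kinases, had 174 counts in the double null and 176 in Trp53-/-, against 101 in Zfp871-/- and 124 in WT (adjusted p = 0.331).

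Other interferon responses were set beside the GTPases. Of 29 antiviral genes tested, 19 rose with Trp53 loss, against 5.01% of all genes, with a median log2 change of 2.03 over the list. Bst2, the tetherin that holds virus particles at the cell surface, had 4041 counts in the double null and 4952 in Trp53-/-, against 1021 in Zfp871-/- and 1155 in WT. Of 9 genes tested that are known chiefly from interferon gamma 3 rose, against the same 5.01%, with a median of 1.60 over the list. The 3 were Psmb8, Cxcl10 and Cxcl9, the last named after its values were seen. Tap1 (log2 change -0.21) and Serping1 (0.14), also among the 4 genes of this list with the highest mean CPM, were not called. Cxcl10, a chemokine, had 378 counts in the double null and 500 in Trp53-/-, against 18 in Zfp871-/- and 22 in WT. Ciita, the activator of MHC class II genes, had 9 counts in the double null and none in Trp53-/-, against 4 in Zfp871-/- and 6 in WT. In the double null against Trp53-/-, 28 of the 29 antiviral genes were lower, with a median log2 ratio of -0.38, where 49.1% of all genes were lower.

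Genes that act on the GTPase proteins were also examined. None of 13 ubiquitin-like conjugation genes that load GTPases onto vacuoles was called with Trp53 loss (median log2 change -0.18). None of 8 prenylation and GDP dissociation genes, which serve membrane attachment, was called either (median -0.16). Of all genes, 5.01% rose and 4.31% fell. At these shares lists this small would hold few calls, so the lack of calls is not particular to them. With Zfp871 loss no gene of any of these lists was called. Of 10 fibroblast markers, Col3a1 fell with Trp53 loss, where 4.31% of all genes fell, and the list had a median of -0.28.

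**Figure D5:**
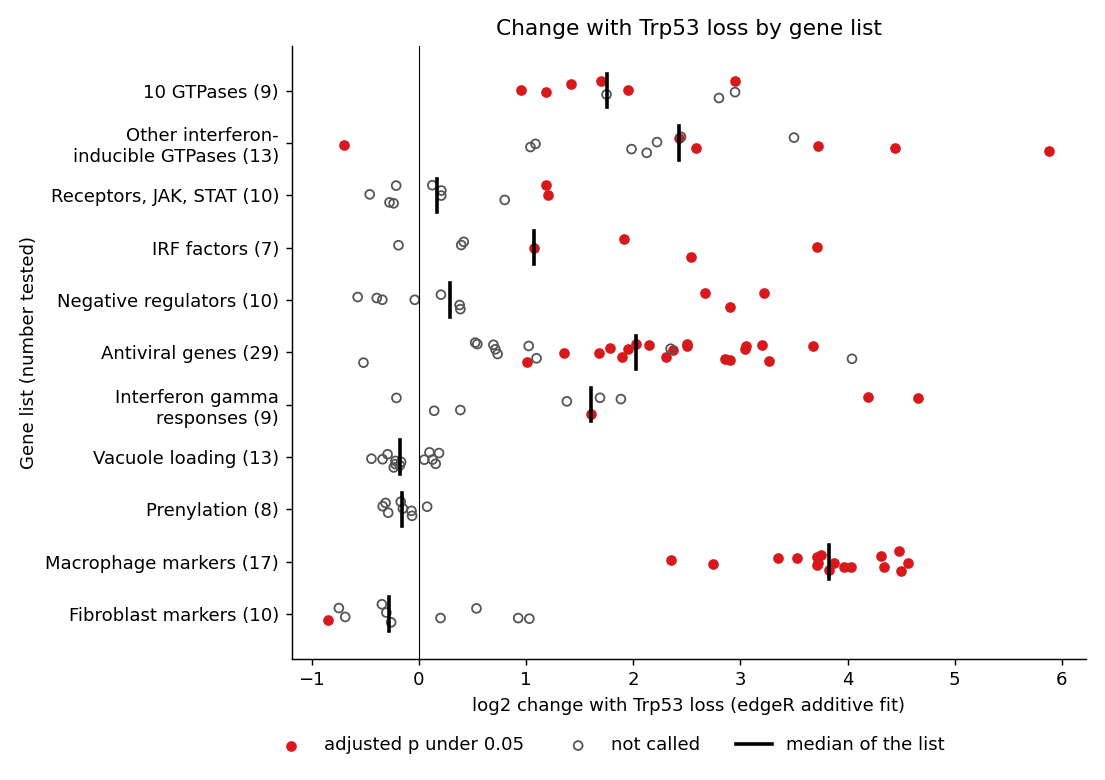
Log2 change with Trp53 loss (edgeR, x axis) of each tested gene in 11 gene lists, 1 list a row with the number tested in parentheses. Filled points passed an adjusted p of 0.05, open points did not, and the bars mark each list's median. The macrophage markers have the highest median, 3.83, and the vacuole-loading and prenylation genes lie at -0.18 and -0.16.

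The genes outside the list whose 3 log2 ratios to WT lay nearest to the members' medians (1.70 in the double null, 2.09 in Trp53-/- and 0.39 in Zfp871-/-) were sought by Euclidean distance over all genes tested. Ube2l6, the conjugating enzyme of Isg15, was nearest at 0.098, with 614 counts in the double null and 822 in Trp53-/-, against 216 in Zfp871-/- and 159 in WT. Hap1 at 0.183, Gm36401 at 0.202, C1qtnf2 at 0.204 and Tbxas1 at 0.220 followed. The members themselves lay from 0.408 (Gbp7) to 2.51 (Iigp1) from the same medians.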

How the data were processed

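The authors deposited raw counts per Ensembl gene and FPKM values. The submitters' processing notes name fastp, STAR, featureCounts and the build mm10. Tool versions, strandedness and the annotation used by the authors are not given in the sources used for this work. Of 54532 gene IDs, 54495 matched GENCODE M21, and the other 37 held 0.00398% to 0.00535% of a library's counts. The deposited FPKM values, whose unit was read from the values, served only to check lengths, which equalled the union exon length within 1% for 95.4% of 10877 genes.

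Genes with a CPM of at least 1 in at least 2 libraries were kept (13306). Counts were fitted with edgeR 4.0.16 (R 4.3.3), TMM factors, additive terms for Trp53 and Zfp871 and 1 residual degree of freedom, and calls were made at an adjusted p of 0.05. edgeR was tested on simulated data. Pairs of libraries got log2 ratios (prior count 2) with Clopper-Pearson intervals and no test, and TPM got exact Poisson intervals, both at 95% and covering counting error only. Alternatives were DESeq2 1.42.0 size factors, total counts, no filter, DESeq2's Wald test, limma-voom (limma 3.58.1), a prior count of 0.5 and a 3-fold limit.

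All 10 members were named. Of each list the 4 genes with the highest mean CPM could be named, with central pathway genes, further GTPases and the 5 genes nearest in pattern. Members and lists were chosen with earlier results of these data known. A pathway gene is not reported here.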

Additional observations from a re-analysis of the deposited data

Results flagged for a closer look

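Loss of Zfp871 went opposite ways in the absence and the presence of Trp53 for 4 members, in the sense that the counting interval of double null against Trp53-/- lay below an equal level and that of Zfp871-/- against WT above it. Of all 13306 genes tested, 5.16% did so. The log2 ratio without Trp53 minus that with it was -3.29 for Gvin1, -2.06 for Iigp1, -1.59 for Gbp3 and -1.06 for Gbp7. Gbp6 had -2.24, but its interval in Zfp871-/- against WT held an equal level. With 1 library a genotype this difference was not tested. Over all 10 members the median difference was -0.78, and 8 of 10 were negative. Over all genes tested the median was 0.00, and 49.8% were negative. Igtp and Gbp5 had 0.01 each.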

How the results depend on the processing

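No paired analysis was possible because each genotype has 1 library, and leaving out a library leaves no residual degree of freedom. Members called with Trp53 loss numbered 6 of 9, and 7 with DESeq2 size factors, total counts or limma-voom, 8 in the DESeq2 Wald test and 9 of 10 with no filter. With Zfp871 loss 0 were called in each of these. The share of all genes that rose was 5.01%, and 5.43% with DESeq2 size factors, 6.64% with total counts, 5.61% in limma-voom, 5.97% in the DESeq2 Wald test and 4.22% with no filter. Over 13306 genes 667 rose and 574 fell with Trp53 loss, against 1113 and 1191 of 26366 genes with no filter and 884 and 432 of 13306 with total counts, which moved the median of all genes by 0.141 (log2) in the double null against Zfp871-/-. With a 3-fold limit 8 members were higher in Trp53-/- against WT (4.54% of all genes), 4 in the double null against Zfp871-/- (2.75%), 5 in the double null against WT (4.4%) and 1 in Zfp871-/- against WT (1.07%), and 0 were lower in the double null against Trp53-/- (0.188%). Log2 changes with Zfp871 loss, none of them called, turned to -0.052 for Gbp7 and -0.40 for Gvin1 in limma-voom, against 0.16 and 0.17, and to 0.10 for Iigp1 in the DESeq2 Wald test, against -0.01. The cause was not tested. Of 200 log2 ratios of members under other settings 199 moved by less than their counting interval, and Irgm1 in the double null against Zfp871-/- stood at 1.31 with total counts. Depth limits Gbp5, with 3 to 42 counts a library, and Gbp6 and Gvin1 in WT, with 8 and 14.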

Other observations

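Inflammasome genes that act with guanylate-binding proteins also differed between the cultures. With Trp53 loss 4 of 8 tested rose in edgeR, against 5.01% of all genes, with a median log2 change of 2.72 over the list. The 4 were Casp1, Aim2, Nlrp3 and Il1b, the last 2 named after their values were seen. None of the 8 was called with Zfp871 loss. Casp1, the inflammatory protease, had 85 counts in the double null and 111 in Trp53-/-, against 1 in Zfp871-/- and 7 in WT. Aim2, a sensor of DNA in the cytosol, had 64 counts in the double null and 67 in Trp53-/-, against 2 in Zfp871-/- and 7 in WT. Gsdmd, the pore-forming gasdermin, had 702 counts in the double null and 654 in Trp53-/-, against 530 in Zfp871-/- and 354 in WT, and was not called. These genes are also expressed by macrophages, whose markers rose in the same libraries, and the part of these cells was not tested.

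Of 13 sensor and adaptor genes upstream of interferon, 4 rose with Trp53 loss (Cgas, Zbp1, Dhx58 and Tlr7) and Ticam1 fell. These 5 were named after their values were seen, and the list had a median log2 change of 0.22. Of all genes, 5.01% rose and 4.31% fell. None of 4 endothelial and 3 epithelial markers tested passed, and 1 dendritic cell marker was tested and did not pass.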
